A study of Homo sapiens with 9 samples.

Results

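DNA repair genes of several pathways were followed in HT-29, a long-established human line from a colon adenocarcinoma, after 24 h with rosemary extract or carnosic acid. The set was chosen by name: 57 genes of homologous recombination, the Fanconi pathway, mismatch repair, nucleotide and base excision repair, end joining and damage signalling. A gene entered when a row of the array carried its symbol and no other, and the brightest such row stood for it. That rule found 31 of the 57, out of 14884 genes named on the array, and all 31 lay above the limit for dim genes (a mean log2 level of 4.50). The 26 genes without a named row were BRCA1, BRCA2, RAD51D, BLM and RBBP8 of recombination, FANCA, FANCB, FANCC, FANCD2, FANCE, FANCF, FANCG, FANCI, FANCL and FANCM of the Fanconi pathway, LIG4 and PRKDC of end joining, the kinase ATM, and all 8 nucleotide excision genes (XPA, XPC, ERCC1, ERCC2, ERCC3, ERCC4, ERCC5 and DDB2). Nucleotide excision repair was therefore not analysed here.

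Cells repair DNA by routes that differ in the lesion they accept and in when they act. Homologous recombination copies a sister chromatid to mend broken DNA and is used mainly in S and G2 phase, and the Fanconi pathway unhooks crosslinked strands and hands the break to recombination. Mismatch repair corrects copying errors, base excision repair removes small damaged bases, and end joining rejoins broken ends without a template at any stage of the cycle. The kinases ATR and CHEK1 slow the cycle when replication stalls. In colon epithelium, loss of mismatch repair or of the glycosylase MUTYH is known as a cause of inherited polyps and cancer.

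The 9 arrays formed 3 groups of 3: cells given the vehicle (labelled untreated), cells given rosemary extract, a polyphenol-rich plant extract, and cells given carnosic acid, a phenolic diterpene of rosemary. Arrays of a group are named as biological replicates in the design text and all come from this 1 line. No dose is given in the sources used here, and the treatments were compared without a matched dose. Each array level is a log2 RMA value, on which a difference of 1 is a 2-fold change, and it ranks samples for a gene but not genes against each other. In these bulk samples fewer cells of a type and less RNA per cell cannot be told apart. Array medians lay between 4.82 and 4.90, no pair of arrays was identical (0 pairs), and all 11 named colon epithelial markers, EPCAM, VIL1 and CDX2 among them, lay above the dim limit. Of 3 named fibroblast markers THY1 alone did, with DCN and LUM below it, and of 3 named endothelial markers VWF alone did. Of 9 leukocyte markers listed 3 had a named row (CD14, CD68 and LYZ), and these lay above it. They summed to 25.23 to 25.42 on untreated arrays, 26.40 to 26.90 with the extract and 25.87 to 26.62 with carnosic acid. The 3 did not move together. Their log2 changes against untreated ran from -0.31 to 1.89 with the extract and from -0.27 to 1.24 with carnosic acid. Their part in the results below was not tested.

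Rosemary extract lowered most of the repair genes measured. A gene is called when limma's adjusted p (Benjamini-Hochberg over 11163 genes) is under 0.05. Of 31 members 21 were called lower with the extract, 1 was called higher and 9 were not called. Over all genes tested 16.3% were called lower, 21.8% higher and 38.1% in either direction. The drop was at least 2-fold in 14 members, against 2.5% of all genes. The median log2 change was -0.50 over the members and -0.018 over all genes. On all 3 extract arrays 21 members lay below every untreated array, as did 21.7% of all genes, and 1 lay above, against 25%. Median log2 changes by role ran from -2.05 in the 2 Fanconi genes and -1.39 in the 10 recombination genes to -0.72 in the 4 signalling and nucleotide genes, -0.41 in the 3 end joining genes, -0.23 in the 4 mismatch genes and -0.16 in the 8 base excision genes.

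**Figure D1:**
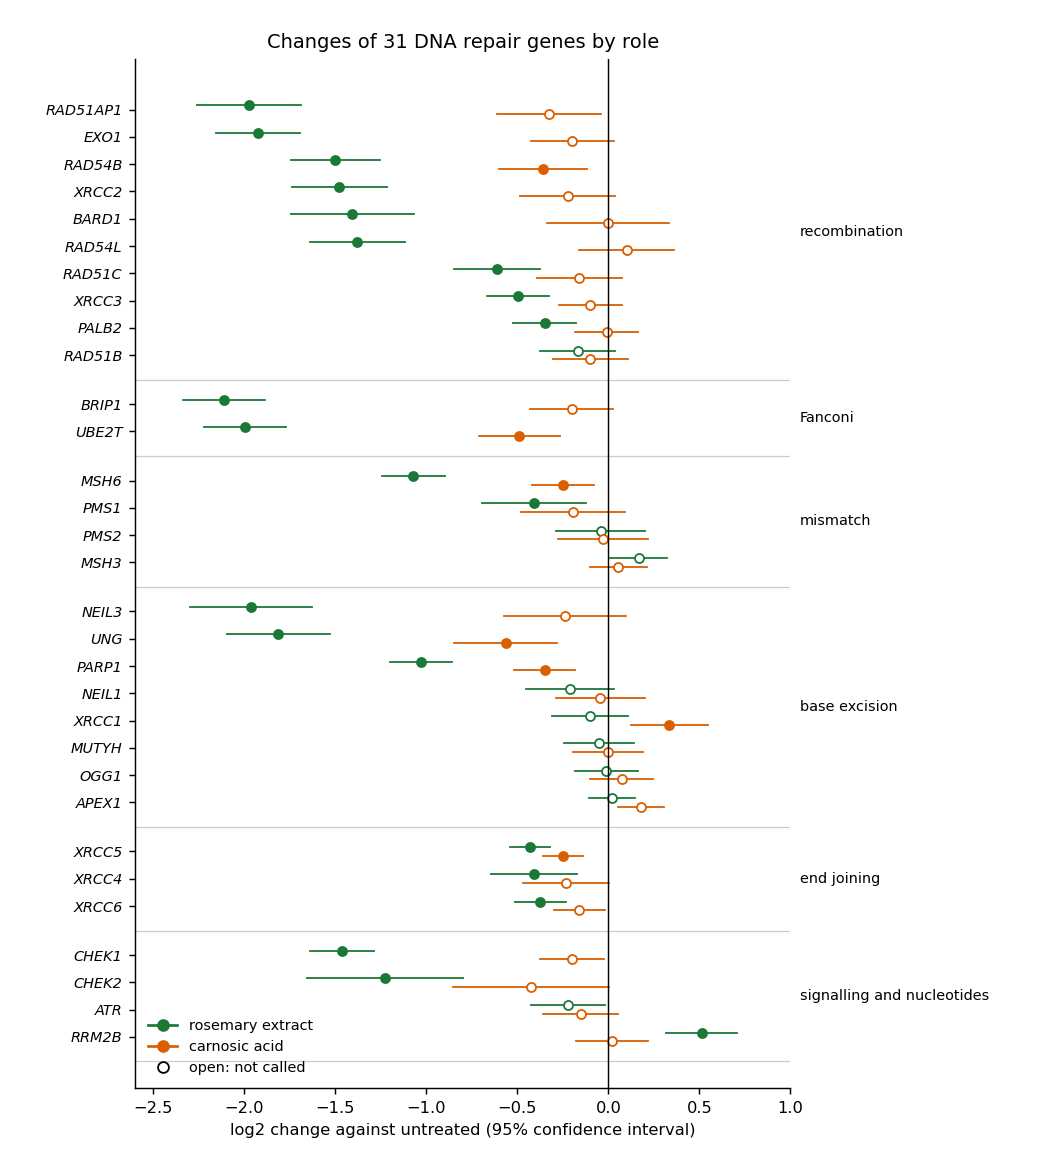
Log2 change against untreated cells (horizontal axis) of the 31 members, grouped by role, with 95% confidence intervals from limma; filled points are called and open points are not. Points for rosemary extract reach -2.11, whereas all points for carnosic acid lie between -0.56 and 0.34.

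Among the recombination genes 9 of 10 fell with the extract. EXO1, the exonuclease that resects broken ends, had log2 levels of 8.26, 8.02 and 8.26 on the untreated arrays and 6.11, 6.28 and 6.37 with the extract. The groups lay far apart, a 3.80-fold fall (log2 change -1.92 ± 0.10, SE, adjusted p = 1.13e-07, limma). RAD51AP1, which promotes the pairing of strands, stood at 8.24, 8.08 and 8.58 untreated and at 6.33, 6.17 and 6.48 with the extract, a 3.92-fold fall (-1.97 ± 0.13, limma adjusted p = 4.16e-07). The strand-exchange motor RAD54B went from 7.53, 7.65 and 7.45 to 6.26, 5.87 and 5.99, and fell 2.83-fold (-1.50 ± 0.11, limma adjusted p = 9.02e-07). XRCC2, which acts in strand exchange, went from 9.21, 9.24 and 9.25 to 8.05, 7.65 and 7.55, and fell 2.79-fold (-1.48 ± 0.12, limma adjusted p = 1.80e-06). For each of these genes the highest extract array was below the lowest untreated array.

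The remaining recombination genes separated by size. BARD1, the partner of BRCA1 in its ubiquitin ligase, fell 2.65-fold from a mean of 7.16 ± 0.22 (log2, SD, n = 3) to 5.75 ± 0.18, and RAD54L, a second motor of the RAD54 type, fell 2.60-fold from 7.29 ± 0.14 to 5.91 ± 0.14. The recombination genes RAD51C (1.53-fold) and XRCC3 (1.41-fold) and PALB2, which bridges BRCA1 and BRCA2 (1.28-fold), fell less. RAD51B was not called (-0.17, 95% confidence interval -0.37 to 0.037, limma adjusted p = 0.191). Its mean of 4.64 untreated was close to the dim limit, and groups overlapped.

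Both Fanconi genes measured fell by about the same amount. BRIP1, a helicase that binds BRCA1, read 8.31, 8.11 and 8.37 untreated and 6.30, 6.09 and 6.06 with the extract, a 4.32-fold fall and the largest of the 31 members (-2.11 ± 0.10, SE, limma adjusted p = 5.96e-08). UBE2T, the enzyme that conjugates ubiquitin to FANCD2 and FANCI, read 9.97, 9.82 and 9.85 untreated and 8.06, 7.66 and 7.93 with the extract, a 3.99-fold fall (-2.00 ± 0.10, limma adjusted p = 7.61e-08). No overlap was seen in either gene. The 10 other Fanconi genes listed had no named row, so these values describe 2 of 12.

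Mismatch repair genes did not move together. MSH6, which recognises single mismatches, read 8.75, 8.64 and 8.86 untreated and 7.64, 7.60 and 7.79 with the extract, and fell 2.10-fold (-1.07 ± 0.08, SE, limma adjusted p = 8.62e-07). MSH3, which recognises larger loops, read 8.61, 8.42 and 8.55 untreated and 8.71, 8.80 and 8.58 with the extract. The MSH3 ranges overlapped and it was not called (0.17, 95% confidence interval 0.011 to 0.32, limma adjusted p = 0.0893), though it was called higher without rosemary extract replicate 3 (adjusted p = 0.0303). PMS2, the endonuclease subunit, read 7.63, 7.62 and 7.81 untreated and 7.66, 7.89 and 7.38 with the extract (-0.043, interval -0.29 to 0.20, not called), and it has near-identical pseudogene copies that can share its probes. PMS1, a relative of PMS2, read 6.27, 6.44 and 6.65 untreated and 6.27, 6.07 and 5.80 with the extract. It was called lower (-0.41 ± 0.13, limma adjusted p = 0.0279) although its groups met. That call was lost in 6 of 18 alternatives, among them leaving out untreated replicate 2 (adjusted p = 0.0646) or 3 (0.107), or rosemary extract replicate 2 (0.0645) or 3 (0.106).

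In base excision repair the extract lowered 3 of 8 genes, each by over 2-fold, and the other 5 were not called. UNG, the glycosylase that removes uracil, read 9.22, 9.26 and 9.32 untreated and 7.31, 7.24 and 7.81 with the extract, a 3.51-fold fall (-1.81 ± 0.13, SE, limma adjusted p = 7.15e-07). NEIL3, a glycosylase of proliferating cells that also opens crosslinks at replication forks, went from 7.79, 7.92 and 7.99 to 5.91, 6.01 and 5.88, a 3.90-fold fall (-1.96 ± 0.15, limma adjusted p = 1.40e-06). PARP1, which binds broken strands and marks them with ADP-ribose, went from 8.99, 8.89 and 8.82 to 7.88, 7.74 and 8.0, a 2.04-fold fall (-1.03 ± 0.08, limma adjusted p = 1.02e-06).

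The enzymes for oxidised bases and the shared core of the pathway gave changes with narrow intervals. OGG1, which removes oxidised guanine, read 6.16, 6.15 and 6.17 untreated and 6.11, 6.17 and 6.17 with the extract (-0.011, 95% confidence interval -0.18 to 0.16). MUTYH, which removes adenine paired with oxidised guanine, lay between 6.64 and 6.84 untreated and between 6.58 and 6.75 with the extract (-0.049, interval -0.24 to 0.14). APEX1, the endonuclease that cuts the resulting gap site, had a change of 0.021 (interval -0.11 to 0.15), and the scaffold XRCC1 of -0.10 (interval -0.31 to 0.11). NEIL1, a glycosylase for oxidised pyrimidines, read 5.24, 5.05 and 5.03 untreated and 4.81, 4.81 and 5.07 with the extract, and its groups overlapped (-0.21, interval -0.45 to 0.034). None of these 5 intervals reached a 2-fold change in either direction, and the limma adjusted p ranged from 0.168 to 0.933.

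The 3 end joining genes fell by small and similar amounts. XRCC5 and XRCC6 encode the Ku subunits that hold broken ends. XRCC5 read 12.05, 11.94 and 12.07 untreated and 11.61, 11.58 and 11.59 with the extract, a 1.35-fold fall (-0.43 ± 0.05, SE, limma adjusted p = 3.55e-05). XRCC6 went from 8.11, 8.04 and 8.08 to 7.62, 7.74 and 7.75 (1.30-fold, limma adjusted p = 0.000589). XRCC4, the partner of LIG4, went from 8.05, 8.06 and 8.17 to 7.90, 7.74 and 7.41 (1.33-fold, limma adjusted p = 0.00998). The ranges did not overlap in any of the 3 genes.

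Among signalling and nucleotide genes the checkpoint kinases fell and RRM2B rose. CHEK1, the kinase activated by ATR, read 8.39, 8.32 and 8.46 untreated and 6.94, 6.79 and 7.05 with the extract, a 2.76-fold fall (-1.46 ± 0.08, SE, limma adjusted p = 1.22e-07). CHEK2, the kinase activated by ATM, had untreated values of 6.47, 6.46 and 6.45 and spread widely with the extract, at 5.76, 4.82 and 5.12 (2.34-fold lower, -1.23 ± 0.20, limma adjusted p = 0.000391). A dimmer row of CHEK2, with a mean level of 4.18 under the dim limit, gave -0.27 and was not called (limma adjusted p = 0.0814 over all rows), and CHEK2 also has pseudogene copies. ATR itself read 8.15, 8.04 and 8.31 untreated and 8.03, 8.02 and 7.78 with the extract, without overlap. It was not called (-0.22, 95% confidence interval -0.43 to -0.017, limma adjusted p = 0.0852) but was called lower under cyclic loess (adjusted p = 0.00924).

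RRM2B was the only member of the 31 called higher with the extract. It encodes the small ribonucleotide reductase subunit that supplies nucleotides outside S phase and is known as a target of p53. Its levels were 6.62, 6.68 and 6.72 untreated and 7.19, 7.28 and 7.08 with the extract, with every extract array above every untreated array. The rise was 1.43-fold (0.51 ± 0.09, SE, limma adjusted p = 0.000757). HT-29 cells are known to carry mutant p53. Of 18 other p53 targets listed 10 were tested. With the extract 3 of the 10 were called higher and 1 lower, where 21.8% and 16.3% of all genes were called. A part of p53 in the rise of RRM2B was not tested.

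**Figure D2:**
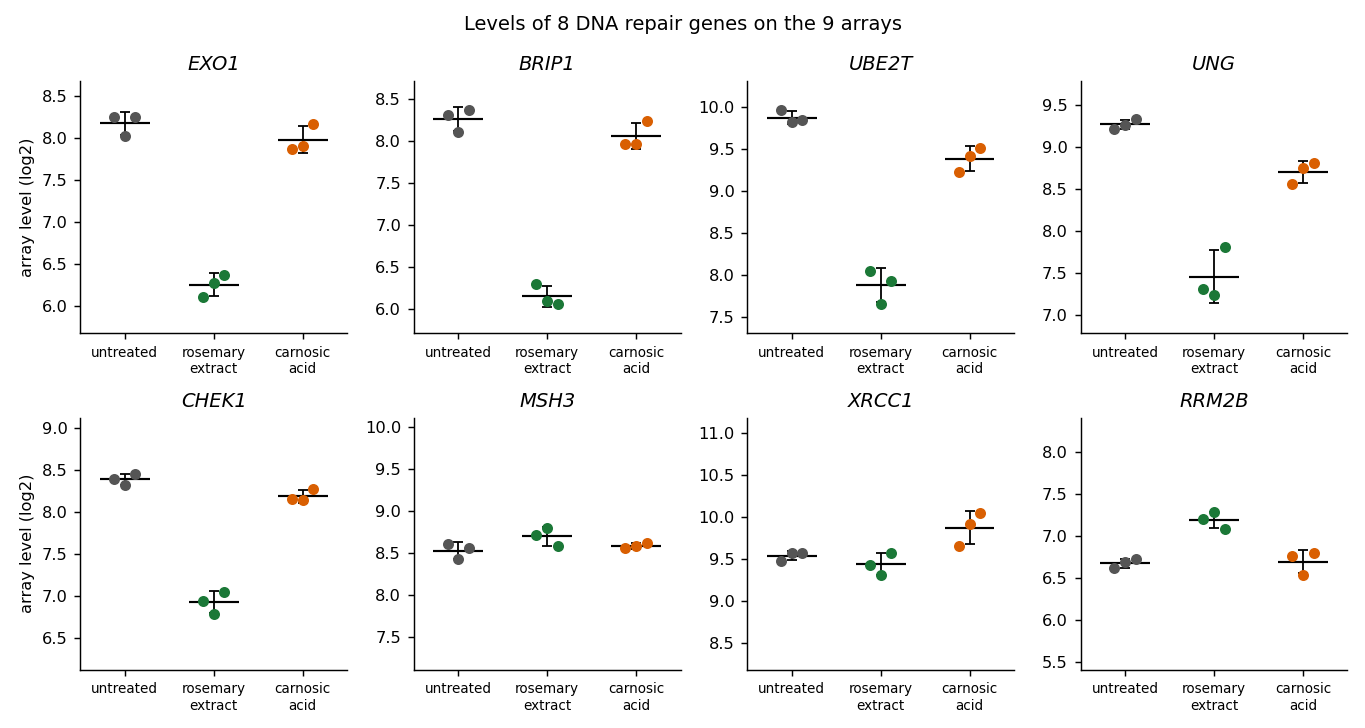
Log2 array levels of 8 members on the 3 arrays of each group (points), with the mean (bar) and SD (error bar); each panel spans the same log2 range. EXO1, BRIP1, UBE2T, UNG and CHEK1 are lowest with rosemary extract, the 3 groups of MSH3 overlap, XRCC1 is highest with carnosic acid and RRM2B with rosemary extract.

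With the extract, proliferation genes fell as the recombination and Fanconi members did. A list of 25 genes of replication and mitosis that holds no member was called lower throughout with the extract (25 of 25, median log2 change -1.69). Over all genes 16.3% were called lower. On each array its median level was 9.45 to 9.59 untreated, 7.93 to 7.99 with the extract and 9.14 to 9.40 with carnosic acid. The median of the 12 recombination and Fanconi members was 7.69 to 7.74 untreated, 6.13 to 6.22 with the extract and 7.51 to 7.84 with carnosic acid. So with carnosic acid the proliferation medians lay below every untreated array. Those of the 12 members did so in carnosic acid replicates 1 and 2 (7.51 and 7.57) but not in replicate 3 (7.84). The median over all genes tested stayed between 6.68 and 6.76. The part of the proliferation genes in the change of the repair genes was not tested.

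**Figure D3:**
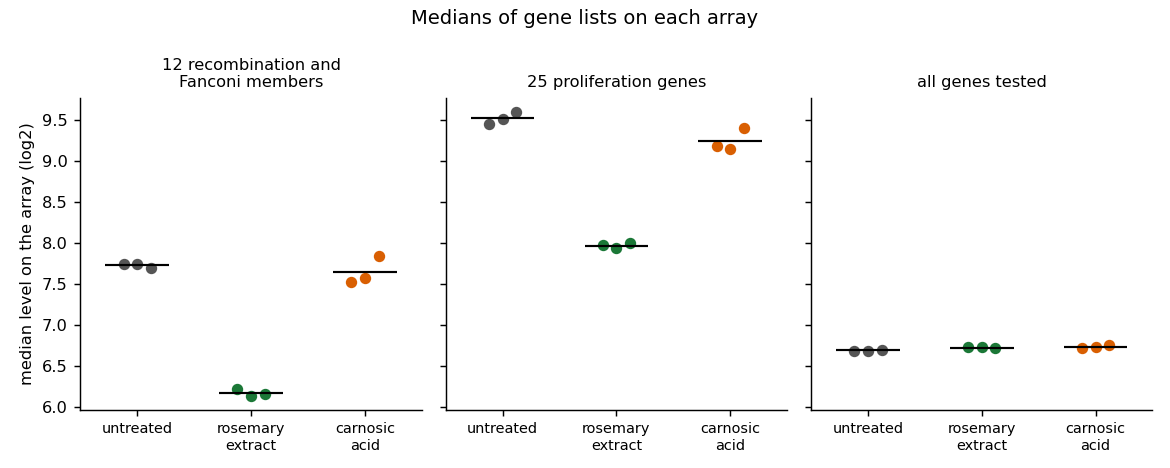
Median log2 level on each array (points) with the mean of the 3 arrays (bar), for the 12 recombination and Fanconi members, 25 proliferation genes and all genes tested. The extract arrays are lowest in both lists, at 6.13 to 6.22 and 7.93 to 7.99, while the median of all genes stays between 6.68 and 6.76.

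Because many members fell together, the sequence around their starts was searched for motifs of cell cycle promoters. RefSeq windows of 300 bases (250 before and 50 after a gene start, GRCh38.p14) were found for 28 of the 31 members, and RAD54B, XRCC5 and RRM2B had none. The E2F motif was taken as TTTCCCGC, TTTCGCGC, TTTGCCGC or TTTGGCGC on either strand. It occurred in at least 1 window of 7 of 28 members (25%), against 3.99% of all 27305 genes with a window and 3.31% of all 35116 windows. Those 27305 genes include genes not measured here. The 28 members had 43 windows, and more windows per gene give more chances of a match, so the shares are not like for like. It was found in 4 of the 13 members that fell at least 2-fold (XRCC2, EXO1, MSH6 and UNG), in 1 of 6 that fell less (XRCC6) and in 2 of 9 that were not called (MSH3 and PMS2). The 30 bases around each match are shown 5′ to 3′ along the gene with the matches in capitals, so that the matches of genes that fell can be set beside those of genes that were not called.
XRCC2 (chr7:152676102-152676131, minus strand): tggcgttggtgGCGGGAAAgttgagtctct
EXO1 (chr1:241848197-241848226, plus strand): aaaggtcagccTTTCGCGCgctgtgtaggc
MSH6 (chr2:47783137-47783166, plus strand): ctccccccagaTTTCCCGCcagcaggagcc
UNG (chr12:109098098-109098127, plus strand): gagggaggtttTTTGCCGCgaaaagaccac
XRCC6 (chr22:41621315-41621344, plus strand): tgtccaagttggtcgcttccctGCGCCAAA
MSH3 (chr5:80654536-80654565, plus strand): gcggtcaagTTTGGCGCGAAAttgtggccg
PMS2 (chr7:6009131-6009160, minus strand): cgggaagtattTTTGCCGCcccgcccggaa
In MSH3 a match on each strand overlaps the other. UNG, whose level fell 3.51-fold, and PMS2, which was not called, carry the same letters TTTGCCGC.

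The CCAAT box, searched as CCAAT on either strand, was common in all classes of change. It occurred in 9 of 13 members that fell at least 2-fold, in 5 of 6 that fell less and in 6 of 9 that were not called, and in 39.7% of all genes with a window. The CHR motif, searched as TTTGAA or TTCGAA on either strand, occurred in 4 of 13 (BRIP1, UBE2T, UNG and NEIL3), 0 of 6 and 2 of 9 (MUTYH and XRCC1), and in 19.5% of all genes. The 250 bases before the start are shown for the Fanconi genes UBE2T and BRIP1, which fell 3.99-fold and 4.32-fold, and for XRCC3, which fell 1.41-fold and has the most CCAAT matches of the 3. Capitals mark CCAAT or, on the other strand, ATTGG.
UBE2T (chr1:202341937-202342186, minus strand): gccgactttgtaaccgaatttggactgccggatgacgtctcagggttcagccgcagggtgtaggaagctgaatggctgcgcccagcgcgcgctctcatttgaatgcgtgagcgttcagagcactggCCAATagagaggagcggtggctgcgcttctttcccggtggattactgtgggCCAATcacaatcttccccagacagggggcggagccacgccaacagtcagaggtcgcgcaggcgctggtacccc
BRIP1 (chr17:61863529-61863778, minus strand): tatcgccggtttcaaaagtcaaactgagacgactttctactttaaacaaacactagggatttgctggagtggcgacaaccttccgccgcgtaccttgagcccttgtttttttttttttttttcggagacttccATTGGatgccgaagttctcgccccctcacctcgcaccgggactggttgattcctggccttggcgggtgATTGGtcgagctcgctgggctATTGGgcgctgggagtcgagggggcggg
XRCC3 (chr14:103715452-103715701, minus strand): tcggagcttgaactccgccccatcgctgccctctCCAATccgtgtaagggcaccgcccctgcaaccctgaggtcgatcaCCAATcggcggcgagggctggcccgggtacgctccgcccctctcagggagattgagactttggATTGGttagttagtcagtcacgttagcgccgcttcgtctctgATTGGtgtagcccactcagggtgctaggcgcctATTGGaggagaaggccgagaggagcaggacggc
UBE2T holds 2 such matches, BRIP1 3 and XRCC3 5. These matches describe letters in a window and do not show binding.

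Carnosic acid changed fewer of the repair genes and by less. Of 31 members 6 were called lower, 1 was called higher and 24 were not called. Over all genes 6.12% were called lower, 12.9% higher and 19% in either direction. No member changed 2-fold (0 of 31, against 0.143% of all genes called at least 2-fold lower), and the median log2 change was -0.16, against -0.011 over all genes. Below every untreated array lay 11 members (13.1% of all genes), and above lay 2 (19.7%). The count called lower was 3 without carnosic acid replicate 1, 3 when every row on the array was tested and 10 under cyclic loess. Calls over all genes shifted too. Without carnosic acid replicate 1, 367 of 11163 genes were called lower, against 683 with all arrays. When every row was tested, 828 of 53617 rows were. Cyclic loess moved the split over all genes from 683 lower and 1440 higher to 1022 lower and 1245 higher.

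The 6 genes called lower were UNG, UBE2T, PARP1, XRCC5, RAD54B and MSH6, in a comparison that uses the same untreated arrays as that of the extract. UNG read 8.56, 8.75 and 8.80 with carnosic acid, below its untreated values of 9.22 to 9.32 (1.48-fold lower, -0.56 ± 0.13, SE, limma adjusted p = 0.0100, and 0.0503 without carnosic acid replicate 1). UBE2T read 9.23, 9.42 and 9.52 against 9.82 to 9.97 untreated (1.40-fold lower, limma adjusted p = 0.00594). PARP1 read 8.50, 8.53 and 8.62 against 8.82 to 8.99 (1.27-fold lower, limma adjusted p = 0.00824). XRCC5 read 11.68, 11.78 and 11.85 against 11.94 to 12.07 (1.19-fold lower, limma adjusted p = 0.00519). In each of these genes, and in RAD54B and MSH6, the carnosic acid arrays lay below the untreated arrays.

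The other calls with carnosic acid were close to the threshold. RAD54B read 7.08, 7.13 and 7.33 (1.29-fold lower, limma adjusted p = 0.0409). Over all 18 alternatives its adjusted p ran from 0.0223 to 0.146, and its call was lost in 8. Among the 8 were a replicate block (adjusted p = 0.0567) and leaving out untreated replicate 1 or 2, rosemary extract replicate 3, or carnosic acid replicate 1 or 2. MSH6 read 8.46, 8.45 and 8.60 (1.19-fold lower, limma adjusted p = 0.0451). Over all 18 alternatives its adjusted p ran from 0.00903 to 0.144, and its call was lost in 11. For MSH6 the 11 included leaving out untreated replicate 1 or 3, rosemary extract replicate 1 or 2, or carnosic acid replicate 1 or 2. XRCC1, the base excision scaffold, was the 1 member called higher. It read 9.48, 9.57 and 9.57 untreated and 9.66, 9.92 and 10.05 with carnosic acid (1.26-fold, 0.34 ± 0.10, limma adjusted p = 0.0306). That call was lost in 8 of 18 alternatives, cyclic loess (adjusted p = 0.0715) and leaving out untreated replicate 1 (adjusted p = 0.103), 2 (adjusted p = 0.0652) or 3 (adjusted p = 0.0547), or carnosic acid replicate 2 (adjusted p = 0.086) or 3 (adjusted p = 0.103), among them.

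Of the genes that fell at least 2-fold with the extract, UNG, UBE2T, RAD54B, PARP1 and MSH6 were called lower with carnosic acid and the others were not called. The largest falls of any member with carnosic acid were in UNG, UBE2T, CHEK2, RAD54B and PARP1. CHEK2 was not called (-0.42, limma adjusted p = 0.163). Other uncalled genes changed less. EXO1 read 7.87, 7.91 and 8.17 with carnosic acid (-0.20, 95% confidence interval -0.43 to 0.032, limma adjusted p = 0.221). BRIP1 read 7.97, 7.97 and 8.24 (-0.20, interval -0.43 to 0.024, limma adjusted p = 0.205). CHEK1 read 8.15, 8.14 and 8.28, below all untreated arrays but not called (-0.20, interval -0.38 to -0.025, limma adjusted p = 0.108). BARD1 had a mean of 7.16 ± 0.28 (log2, SD, n = 3) against 7.16 ± 0.22 untreated, and the interval of its difference was -0.34 to 0.33. NEIL3 spread over 7.32, 7.58 and 8.08 (-0.24, interval -0.57 to 0.097, not called), and it was called lower without carnosic acid replicate 3 (adjusted p = 0.0142). The list of 25 proliferation genes had 10 called lower and 0 higher with carnosic acid, against 6.12% and 12.9% of all genes. Its median log2 change was -0.27.

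**Figure D4:**
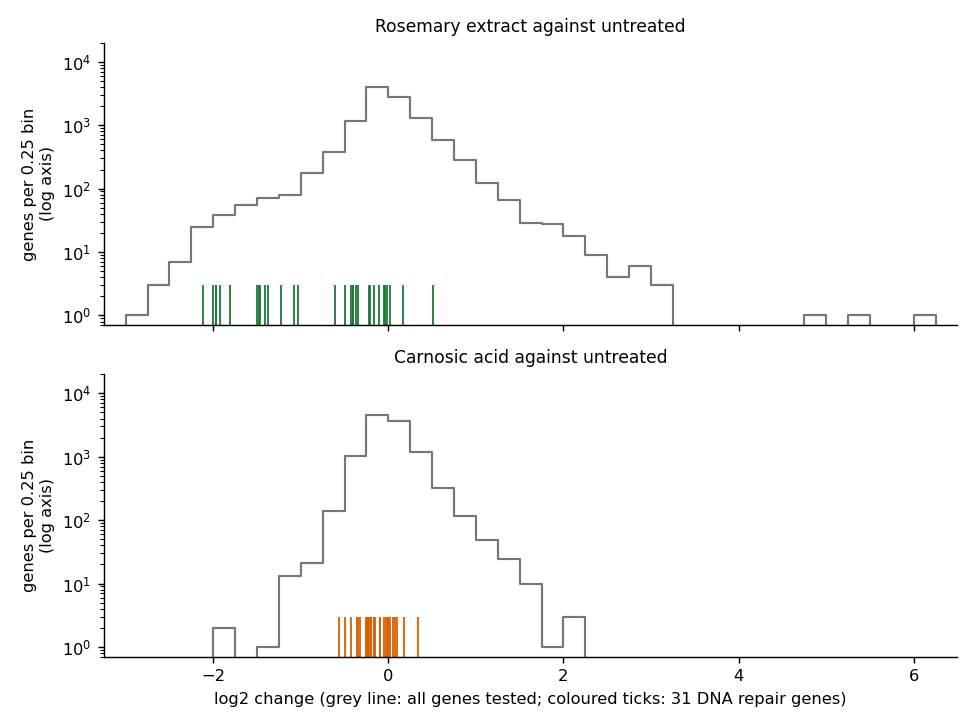
Number of genes per bin of log2 change (log vertical axis) among all 11163 genes tested (grey line), with a coloured tick for each of the 31 repair genes. With rosemary extract the ticks run from -2.11 to 0.51 and with carnosic acid from -0.56 to 0.34.

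The treatments were then compared directly, at doses not known to match. Of 31 members 20 were lower with the extract than with carnosic acid and 1 was higher, where 9.07% and 8.24% of all genes were called, 17.3% in either direction. The difference was at least 2-fold lower in 11 members, against 1.55% of all genes. All 3 extract arrays lay below every carnosic acid array in 21 members (15.6% of all genes) and above in 1 (16.2%). BRIP1 differed most, with 6.06 to 6.30 on extract arrays against 7.97 to 8.24 on carnosic acid arrays, 3.76-fold lower (-1.91 ± 0.10, SE, limma adjusted p = 5.54e-07). EXO1 was 3.31-fold lower (limma adjusted p = 9.12e-07), NEIL3 3.31-fold (limma adjusted p = 1.35e-05), RAD51AP1 3.14-fold (limma adjusted p = 5.85e-06) and UBE2T 2.84-fold (limma adjusted p = 1.90e-06). RAD54L, CHEK1 and UNG were lower by 2.79-fold, 2.40-fold and 2.38-fold. For all of these genes the extract arrays lay below every carnosic acid array.

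A pair of members set the treatments apart in another way. RRM2B was higher with the extract (7.08 to 7.28) than with carnosic acid (6.53 to 6.79), by 1.41-fold (0.49 ± 0.09, SE, limma adjusted p = 0.00264). XRCC1, not called with the extract, was lower there (9.31 to 9.57) than with carnosic acid (9.66 to 10.05), by 1.35-fold (-0.44 ± 0.10, limma adjusted p = 0.00787). For PMS1 and XRCC4, called lower with the extract, the direct difference was not called (-0.21, 95% confidence interval -0.50 to 0.073, and -0.18, interval -0.41 to 0.059). The small differences of XRCC5 (1.13-fold, limma adjusted p = 0.0282) and XRCC6 (1.16-fold, limma adjusted p = 0.0374) lost their calls in 7 and 9 of 18 alternatives. For XRCC5 the adjusted p rose to at most 0.129, and the call was lost without any of the 3 extract arrays or carnosic acid replicate 2 or 3. For XRCC6 it rose to at most 0.147, and the call was lost without extract replicate 1 or 2 or any of the 3 carnosic acid arrays. CHEK2 was 1.74-fold lower (limma adjusted p = 0.0147), and lost its call without extract replicate 2 (0.0616) or carnosic acid replicate 3 (0.07), among 4 alternatives. RAD51C lost its call without extract replicate 2 (0.0505). With every row on the array tested the XRCC1 call was lost as well (0.0579). Without any 1 array the lower count was 16 to 20.

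Of the 8 members not called in any of the 3 comparisons as fitted, 4 were base excision genes (OGG1, MUTYH, NEIL1 and APEX1), 2 were mismatch genes (MSH3 and PMS2), and the others were RAD51B and ATR. APEX1 was near the threshold with carnosic acid (0.18, 95% confidence interval 0.050 to 0.31, limma adjusted p = 0.0541, and 0.0355 without untreated replicate 3), with 10.06, 10.11 and 10.22 above untreated values of 9.87 to 10.03.

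Other genes of the same pathways were more often called lower than higher with the extract. Of 129 further repair genes listed 70 were tested. With the extract 30 were called lower and 8 higher, against 16.3% and 21.8% of all genes, with a median log2 change of -0.16. The flap nuclease FEN1 fell 3.70-fold (-1.89 ± 0.09, SE, limma adjusted p = 7.03e-08), the kinase WEE1, which restrains entry into mitosis, 2.59-fold and the resection nuclease DNA2 3.05-fold. The rises with the smallest p were in RAD17 (1.60-fold, limma adjusted p = 3.98e-05), which loads the checkpoint clamp, and in BABAM2 (1.60-fold, limma adjusted p = 4.56e-05), a subunit of a BRCA1 complex. Next came HUS1 (1.43-fold, limma adjusted p = 0.000628), a subunit of the checkpoint clamp. The clamp did not move as a whole. Its subunit RAD1 was called lower (-0.66, limma adjusted p = 1.53e-05) and RAD9A was not called (0.18, limma adjusted p = 0.122). By pathway, the extract lowered 13 of 29 recombination and Fanconi genes and 13 of 23 end joining and signalling genes. In mismatch and excision repair it lowered 4 of 18, a share closer to the 16.3% of all genes. With carnosic acid 6 of the 70 were called lower and 4 higher, against 6.12% and 12.9% of all genes. Those counts were 2 to 7 and 1 to 7 without any 1 array, and 1 and 0 with every row on the array tested. RAD17 (1.26-fold, limma adjusted p = 0.0142) and HUS1 (1.28-fold, limma adjusted p = 0.0145) were among the 4. RAD1 (-0.17, limma adjusted p = 0.107) and RAD9A (0.27, limma adjusted p = 0.051) were not called with carnosic acid.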

How the data were processed

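RNA of 9 HT-29 cultures was hybridised to Affymetrix GeneChip ST arrays. The authors deposited RMA values computed with oligo, per the labels, and their range is that of a log2 scale. RMA gives no detection call and compresses large folds. Of 53617 rows 16098 had 1 symbol in the platform annotation, and all matched RefSeq by Entrez identifier. The brightest row stood for each of 14884 genes, and the dimmest 25% were left out, leaving 11163. Group means were fitted to all 9 arrays with limma 3.58.1 in R 4.3.3 (lmFit, trended eBayes, 6 residual degrees of freedom), two-sided, with Benjamini-Hochberg adjustment, and the fit was tested on simulated data. With 3 arrays per group precision is limited, and no label names separate culture days, so p-values measure the spread between these arrays.

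Members and lists were chosen with earlier results of these data known. Every array is given for the 4 members per role with the smallest p under the extract. Arrays are also given for members called against their group or called with carnosic acid, and where a result turns on them. Of other repair genes the 3 with the smallest p in each direction are named, with the clamp partners of HUS1. Alternatives were cyclic loess, median centring, other dim filters, the mean of a gene's rows, all rows, no trend, only the arrays compared, a replicate block and leaving out each array. Motifs were chosen after the fits.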

Additional observations from a re-analysis of the deposited data

How the results depend on the processing

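With rosemary extract 21 of 22 member calls were kept in every one of the 18 alternatives that tested the gene (the exception was PMS1). CHEK2 was not tested with the dimmest 50% left out, so its call was kept in the others only. With carnosic acid 3 of 7 were kept (not RAD54B, MSH6, UNG and XRCC1), and between the treatments 15 of 21 (not PALB2, RAD51C, XRCC1, XRCC5, XRCC6 and CHEK2). With all rows of the array fitted and tested, carnosic acid gave 3 members lower and 0 higher, and 1 other repair gene lower and 0 higher. Of all 53617 rows 828 were then called lower and 1746 higher. In that setting extract against carnosic acid gave 1 other repair gene higher. Under cyclic loess carnosic acid gave 10 members lower and 0 higher, with RAD51AP1, XRCC4, XRCC6 and CHEK1 called lower in addition. It gave 0 members higher with no mean-variance trend and 2 with the dimmest 50% left out. The causes of these shifts were not tested.

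Leaving out each array in turn gave, with the extract, 20 to 21 members lower and 1 to 2 higher, and 27 to 31 other repair genes lower and 6 to 12 higher. With carnosic acid it gave 3 to 7 members lower, 0 to 1 higher, 2 to 7 other repair genes lower and 1 to 7 higher. Between the treatments it gave 16 to 20 members lower, 1 higher, 25 to 27 other repair genes lower and 1 to 6 higher. MSH3 was the added higher call with the extract (without its replicate 3). The low counts with carnosic acid came without carnosic acid replicate 1 (3 members and 2 other genes lower). Over all 11163 genes the count called lower was also smaller there, at 367 against 683 with all arrays.

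Of the 15 member results that turned sign in some alternative, 0 had been called. These were, under cyclic loess, OGG1 (0.0033) and APEX1 (-0.048) with the extract and MSH3 (-0.020), NEIL1 (0.021) and RRM2B (-0.0059) with carnosic acid, and, under median centring, OGG1 (0.0083) with the extract and BARD1 (0.010), PALB2 (0.0052) and MUTYH (0.013) with carnosic acid. Without 1 array the ranges that crossed 0 were, with the extract, APEX1 -0.020 to 0.058, MUTYH -0.092 to 0.0076, OGG1 -0.020 to 0.0072 and PMS2 -0.17 to 0.088. With carnosic acid they were BARD1 -0.16 to 0.12, MUTYH -0.057 to 0.056, NEIL1 -0.10 to 0.044, PALB2 -0.086 to 0.057, PMS2 -0.062 to 0.033, RAD54L -0.022 to 0.17 and RRM2B -0.031 to 0.10. Between the treatments they were ATR -0.13 to 0.011, MUTYH -0.091 to 0.0072 and PMS2 -0.14 to 0.12.

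Replicate numbers are shared between groups. Deviations of same-numbered arrays from their group means correlated at -0.219 to 0.238, over 0.1 in 3 of 9 pairs. Those of differently numbered arrays correlated at -0.355 to 0.28. With 3 arrays per group these values cannot settle whether the arrays were paired. With the replicate block the member counts were 21 lower and 1 higher with the extract, 6 and 1 with carnosic acid and 19 and 1 between the treatments. It ended the calls of RAD54B with carnosic acid (adjusted p = 0.0567) and XRCC6 between the treatments (0.0548), and RAD51AP1 was called lower with carnosic acid (0.0128).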

Other observations

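Several members share a start region with a gene read in the opposite direction, which gives a neighbouring value for the same stretch of DNA. By a rule chosen after the changes were seen (RefSeq starts on opposite strands within 1000 bases, partner tested), 6 members had such a partner. XRCC6 fell by 0.37 on the log2 scale with the extract, while DESI1, whose start is 252 bases away, rose by 1.01 ± 0.07 (SE, limma adjusted p = 8.79e-07). DESI1 also rose with carnosic acid (0.54, limma adjusted p = 0.000483). PMS1 fell by 0.41 and ORMDL1, 111 bases away, rose by 0.59 ± 0.12 (limma adjusted p = 0.00223). CHEK2 fell by 1.23 while HSCB, 212 bases away, had a change of -0.14 (limma adjusted p = 0.264). The partners of PALB2 (DCTN5, 0.049), XRCC4 (TMEM167A, 0.063) and APEX1 (OSGEP, 0.15) were not called. The difference between partners was not tested.

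Exactly equal values occur across arrays in the deposited table. Between 2 arrays 2.57% to 5.57% of genes tested had the same value, and the highest share was between carnosic acid replicates 1 and 2, where RAD51AP1, XRCC2 and BRIP1 were equal. At least 1 such tie was found in 8 of the 31 members.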
